A study of Mus musculus with 16 samples.

Results

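This account follows 45 genes of the cell cycle, 20 that act in S phase, when DNA is copied, and 25 that act in mitosis, when the copies are separated, in the inflamed ear skin of mice. They were found by gene symbol in the deposited table of each mouse, and all 45 were listed in all 16 libraries, out of 19439 genes listed in at least 1. The BALB/c mice were 8 weeks old, and every mouse had IMQ (imiquimod, which activates Toll-like receptor signalling and is used to model psoriasis) applied to the ear, so no group shows skin without it. Each mouse also had 1 intradermal injection a day, of 10 µl of LPC (lysophosphatidylcholine, a phospholipid) at 10 mM or of 10 µl of saline as vehicle, in a course that the protocol sets at 6 days. Each of the 4 groups had 4 mice and 4 libraries, which are called mice 1 to 4 here after the number in the labels. The groups were vehicle with IMQ killed on day 4, LPC with IMQ killed on day 4, vehicle with IMQ killed on day 7 and LPC with IMQ killed on day 7. How many injections and IMQ applications a mouse had received by day 4 was not established here. The days may thus differ in treatment received as well as in time. The comparisons ask whether LPC changed these genes at either day, whether they differed between the days within each treatment, and whether the mitotic and the S-phase genes did so alike.

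A dividing cell loads the MCM helicase on replication origins, commits to DNA replication under cyclin E and the E2F transcription factors, and copies its DNA. Later it builds up cyclins A and B, which drive the kinase Cdk1, and assembles a spindle whose checkpoint holds back the anaphase-promoting complex until every chromosome is attached. In epidermis the basal keratinocytes are the cells that mainly divide, and psoriasis-like lesions are known for their faster turnover. E2F sites are known from the promoters of many S-phase genes, and a cell cycle homology region (CHR), often beside a CCAAT box, from those of many mitotic genes.

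The promoters of both classes were compared because the results turn on how far the classes differed. RefSeq promoter windows on GRCm38.p6, from 250 bases before to 50 bases after a gene's start, were found for 37 of the 45 members, and 8 had none (Kif20a, Mcm4, Ccne2, Foxm1, Tpx2, Aurkb, Ccna2 and Gins2). Motifs were searched as exact letters on both strands. The CHR, as TTTGAA or TTTAAA, was in the windows of 17 of 20 mitotic and 6 of 17 S-phase members, against 30.6% of 27025 genes with a window and 23.6% of the 12411 of them that were tested here. CCAAT was in 16 of 20 mitotic and 10 of 17 S-phase members, against 41.1% of genes with a window and 42.3% of tested genes. The E2F site, as TTTCCCGC, TTTCGCGC, TTTGCCGC or TTTGGCGC, was in 8 of 17 S-phase members and in 1 of 20 mitotic members, Cdk1, against 2.6% of genes with a window and 4.1% of tested genes. The shorter form without the first T, which every longer match also holds, was in 11 of 17 S-phase and 3 of 20 mitotic members, against 10.9% of genes with a window and 17.5% of tested genes, so that the mitotic share lay below the latter. These letters are matches and not shown binding sites.

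The 250 bases upstream of the start are printed 5′ to 3′ along the gene's strand for 3 mitotic members of a fixed panel, to show the CHR and CCAAT letters close to the start, and capitals mark every motif match on either strand. Plk1, the polo-like kinase that starts centrosome maturation and spindle assembly, lies on the plus strand (chr7:122159185-122159434). Cdk1, the kinase that drives entry into mitosis, lies on the minus strand (chr10:69352913-69353162), as does Top2a, the topoisomerase that untangles sister chromosomes (chr11:99024190-99024439). TTTAAA stands at -29 in Plk1 and TTTGAA at -15 in Cdk1, counted from the start, and Cdk1 also holds the E2F letters TTTCGCGC at -131. Top2a holds 6 matches to CCAAT or its complement ATTGG.
Plk1: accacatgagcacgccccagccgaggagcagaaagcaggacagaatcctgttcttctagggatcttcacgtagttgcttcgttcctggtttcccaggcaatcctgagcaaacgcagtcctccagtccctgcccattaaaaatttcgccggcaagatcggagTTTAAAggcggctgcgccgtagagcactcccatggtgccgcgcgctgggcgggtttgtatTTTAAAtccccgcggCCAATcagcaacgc
Cdk1: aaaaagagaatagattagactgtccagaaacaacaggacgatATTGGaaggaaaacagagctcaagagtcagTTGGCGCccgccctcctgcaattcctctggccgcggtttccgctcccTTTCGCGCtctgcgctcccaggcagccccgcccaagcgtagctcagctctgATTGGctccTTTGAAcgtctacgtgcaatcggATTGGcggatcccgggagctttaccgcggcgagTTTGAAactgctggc
Top2a: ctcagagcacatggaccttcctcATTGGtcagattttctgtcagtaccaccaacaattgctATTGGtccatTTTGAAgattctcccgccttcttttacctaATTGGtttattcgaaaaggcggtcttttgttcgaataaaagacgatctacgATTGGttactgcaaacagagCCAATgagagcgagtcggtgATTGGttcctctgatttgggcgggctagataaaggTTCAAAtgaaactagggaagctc

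The same stretch is printed for 3 S-phase members of the panel, to show that E2F letters are present in some and absent in others. Mcm5, a subunit of the replicative helicase, lies on the plus strand (chr8:75109259-75109508) and holds 2 overlapping long E2F matches at -153 and -149 as well as a CHR match at -221. Uhrf1, which passes DNA methylation on to the new strand, lies on the plus strand (chr17:56304063-56304312, the second of its 2 windows) and holds TTTCGCGC at -185. Mcm2, another helicase subunit, lies on the minus strand (chr6:88898781-88899030) and holds no E2F letters in this window but TTTGAA at -70.
Mcm5: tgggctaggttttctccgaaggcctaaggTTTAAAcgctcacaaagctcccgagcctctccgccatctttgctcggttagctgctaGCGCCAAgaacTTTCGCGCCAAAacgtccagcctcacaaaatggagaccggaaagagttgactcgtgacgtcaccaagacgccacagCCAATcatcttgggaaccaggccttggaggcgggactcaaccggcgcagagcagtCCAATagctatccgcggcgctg
Uhrf1: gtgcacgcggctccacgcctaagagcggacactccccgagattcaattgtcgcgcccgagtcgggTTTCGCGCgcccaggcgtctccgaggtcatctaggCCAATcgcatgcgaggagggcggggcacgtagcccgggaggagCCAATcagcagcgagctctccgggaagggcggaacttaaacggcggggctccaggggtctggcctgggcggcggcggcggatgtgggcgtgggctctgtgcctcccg
Mcm2: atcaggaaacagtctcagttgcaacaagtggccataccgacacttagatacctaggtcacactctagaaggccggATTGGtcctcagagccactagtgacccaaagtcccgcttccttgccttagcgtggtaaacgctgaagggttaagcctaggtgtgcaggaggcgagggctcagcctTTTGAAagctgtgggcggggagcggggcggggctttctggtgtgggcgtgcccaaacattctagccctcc

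Expected counts summed to between 18704197 and 20131513 per library, and 15782 genes, all 45 members among them, had enough counts to be tested with edgeR's quasi-likelihood test. Basal keratinocyte markers were measured throughout: the score of 12 of them, such as Krt5 and Krt14, was between 8.19 and 9.49 in every library, where a score is the mean over a list of log2 CPM (counts scaled to library size). This score does not tell ear from other skin. The libraries differed far more in other tissue, with skeletal muscle scores (25 genes) from 3.56 to 10.23, adipocyte scores (11 genes) from 1.80 to 7.92 and hair matrix scores (13 genes) from 0.07 to 7.09. These are bulk samples, in which fewer cells of a type and less RNA per cell cannot be told apart.

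Levels of different genes are compared as FPKM, which is scaled to transcript length. Pcna, the sliding clamp of the DNA polymerases, had the highest median of the 45 members over the 16 mice, 93.99 FPKM, with a range of 57.86 to 129.34. Rrm2, the regulated subunit of the enzyme that makes deoxynucleotides, came next among the S-phase members at 28.76 FPKM, and the helicase subunits Mcm2 to Mcm7 had medians between 14.63 and 27.28. The lowest S-phase medians were those of Ccne2, the second cyclin E, at 1.86 FPKM and of the licensing factor Cdc6 at 2.48. Of the mitotic members, Cdc20 and Ube2c, which serve the anaphase-promoting complex, had the highest medians, 47.90 and 46.46 FPKM, and the large kinetochore proteins Cenpf and Cenpe the lowest, 1.80 and 1.86. From the lowest to the highest mouse, levels differed 8.65-fold for Bub1, a kinase of the spindle checkpoint, and 8.05-fold for Rrm2, but 1.77-fold for Mcm7 and 1.78-fold for Tyms, which makes thymidylate. Within groups, the spread between mice (pooled SD of log2 CPM) had a median of 0.55 over the mitotic members and 0.39 over the S-phase members.

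**Figure D1:**
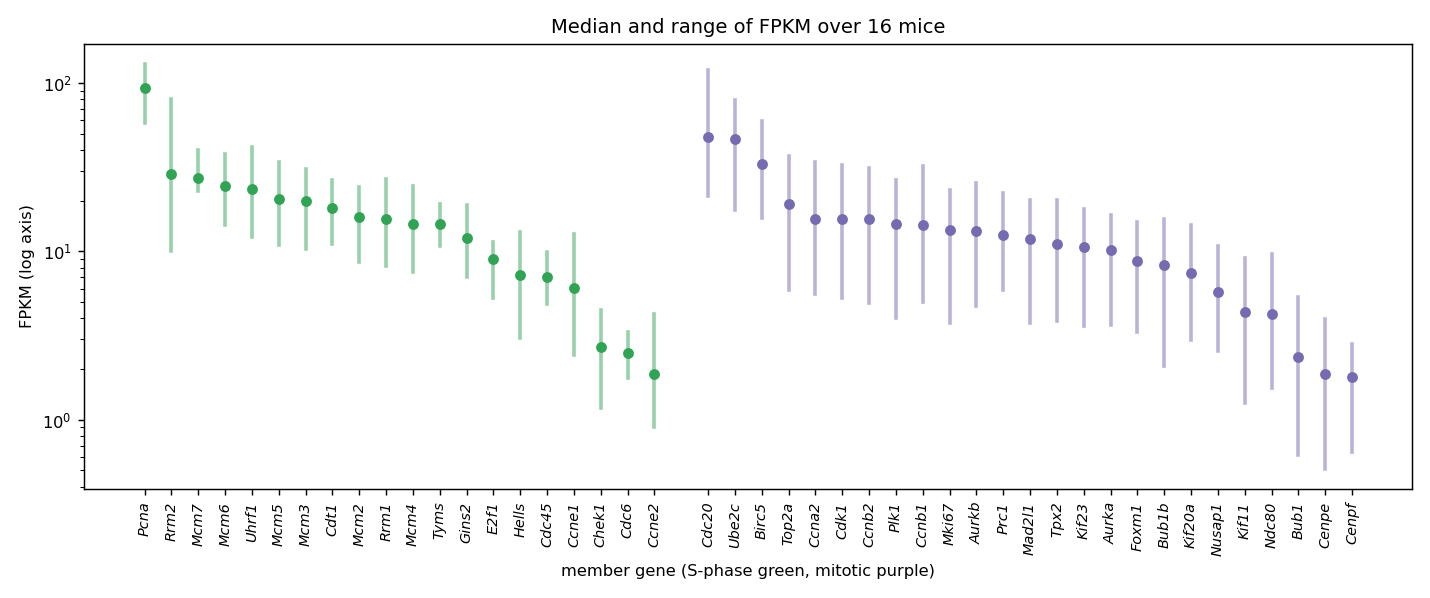
Level of each of the 45 members in FPKM on a log axis, with a point at the median of the 16 mice and a line from the lowest to the highest mouse, S-phase members in green and mitotic members in purple. Pcna stands highest at a median of 93.99 FPKM, and Cenpf lowest at 1.80.

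The level of each class is summarised by its score in each mouse. The mean log2 CPM of the 25 mitotic members was 3.46, 4.66, 4.26 and 4.80 in mice 1 to 4 of vehicle day 4, and 4.66, 5.26, 4.34 and 4.56 in LPC day 4. At day 7 it was 5.66, 5.79, 5.41 and 4.70 with vehicle and 5.60, 5.17, 5.78 and 4.74 with LPC. Mouse 4 of vehicle day 7 and mice 2 and 4 of LPC day 7 lay within the range of their day 4 group, and the other 3 vehicle mice of day 7 lay above all 8 mice of day 4. For the 20 S-phase members the score was 4.26, 4.97, 4.71 and 4.91 in vehicle day 4, and 5.01, 5.17, 4.89 and 5.15 in LPC day 4. It was 5.30, 5.59, 5.15 and 4.66 in vehicle day 7, and 5.57, 4.94, 5.72 and 4.88 in LPC day 7, so that every pair of groups overlapped.

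Single mice stood apart across nearly the whole set. Mouse 1 of vehicle day 4 was the lowest of all 16 mice for 17 of 20 S-phase and 24 of 25 mitotic members. Its transcripts over 5000 bases were also low beside those under 1500 bases, by 0.24 on a log2 scale set to the mean of all libraries, and its skeletal muscle score, 10.23, was the highest; their part in its low values was not tested. Mouse 4 of vehicle day 7 was the lowest of its group for all 25 mitotic and 18 of 20 S-phase members. It also had the group's lowest score for hyperproliferative keratinocyte markers (8 genes such as Krt6a and Krt16), 7.82 against 10.81 to 11.39 in the other 3, and the part of this in its member values was not tested. In LPC day 4, mouse 2 was the highest for all 25 mitotic members but for 8 of 20 S-phase members. In LPC day 7, mouse 4 was the lowest for 24 of 25 mitotic but for 9 of 20 S-phase members.

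The difference between the mitotic and the S-phase score was lower at day 4 than at day 7. It was -0.80, -0.31, -0.45 and -0.11 in vehicle day 4 and 0.37, 0.20, 0.26 and 0.04 in vehicle day 7, with no overlap. With LPC it was -0.35, 0.09, -0.55 and -0.59 at day 4 and 0.03, 0.23, 0.06 and -0.13 at day 7, and mouse 2 of day 4 overlapped with day 7. The means were -0.42 ± 0.29 and 0.22 ± 0.14 with vehicle, and -0.35 ± 0.31 and 0.05 ± 0.15 with LPC (SD, n = 4 each). These differences are given as a description, without a test, because the members were chosen with earlier results of these data known.

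**Figure D2:**
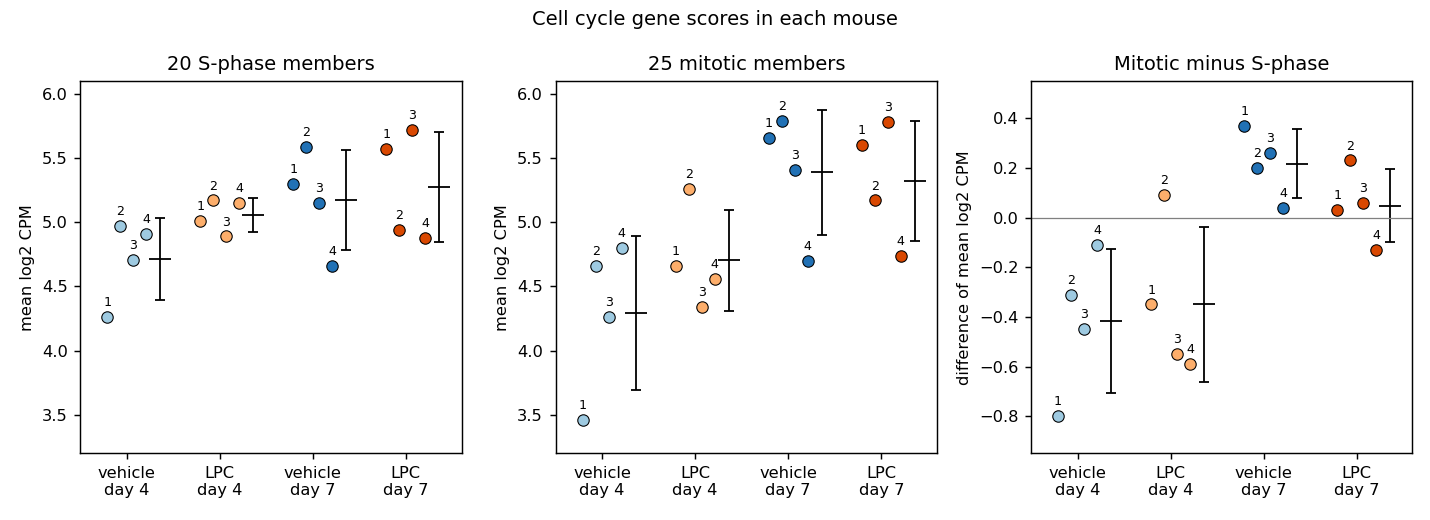
Mean log2 CPM of the 20 S-phase members, of the 25 mitotic members and the difference of these scores, with a numbered point for each mouse and a bar for the mean and SD of the 4 mice. The difference is below 0 in all 4 vehicle mice of day 4 and above 0 in all 4 vehicle mice of day 7.

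In vehicle skin, all 25 mitotic members had a higher fitted level at day 7 than at day 4, by a median of 1.01 in log2 terms, with a range of 0.75 for Prc1, which bundles the spindle midzone, to 1.30 for Bub1. All 20 S-phase members were also higher, by a median of 0.43, with a range of 0.15 for Mcm7 to 1.08 for Rrm2, while the median over all genes tested was 0. None passed the test over all genes (edgeR, Benjamini-Hochberg adjusted p below 0.05), as was true of every other gene, with 0% called higher and 0% called lower. All 25 mitotic members had an unadjusted p below 0.05, with adjusted p between 0.208 and 0.356, and 13 of them were over 2-fold. Of the S-phase members, 5 had such an unadjusted p, against 2050 of 15782 genes. The members moved together in single mice, so these counts are not counts of separate results. DESeq2, run on the same counts, called 2 of the 45, Ccna2 and Ndc80, and 223 genes in all. Without mouse 4 of vehicle day 7, edgeR called Tpx2, an activator of the kinase Aurka, at 1.22 in log2 terms (adjusted p 0.0486), and 205 genes in all. Leaving out mouse 1 of vehicle day 4 gave the lowest mitotic median of the 8 such fits, 0.82, and leaving out mouse 2 of vehicle day 7 the lowest S-phase median, 0.25.

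The mitotic median thus exceeded the S-phase median by 0.59 in vehicle skin, and by 0.51 to 0.71 when single mice were left out. With LPC the same excess was 0.48, or 0.35 to 0.64 without single mice. For LPC against vehicle it was 0.05 at day 4, where its sign turned with single mice, from -0.16 without mouse 2 of LPC to 0.18 without mouse 4 of LPC. At day 7 it was -0.14, or -0.21 to -0.09 without single mice. Other tissue also differed between the days in vehicle skin: all 13 hair matrix markers had lower fitted levels at day 7 (median -3.52, scores 3.17 to 7.09 at day 4 and 0.07 to 3.23 at day 7), as had all 11 hair shaft markers (median -3.43), all 25 skeletal muscle genes (median -1.50, scores 6.78 to 10.23 and 6.41 to 8.74) and all 11 adipocyte markers (median -1.12), and all 7 fibroblast markers higher ones (median 1.16), none called. Of the hyperproliferative keratinocyte markers 7 of 8 were higher (median 1.46), none called, with scores of 6.93 to 10.00 at day 4 and 7.82 to 11.39 at day 7. Some of these are also neutrophil markers. Basal keratinocyte markers had a median of 0.03, with 8 of 12 higher and none called. With the hair matrix score as a covariate the medians were 0.99 for the mitotic and 0.41 for the S-phase members, and with the skeletal muscle score 0.86 and 0.24. The part of the other lists was not tested.

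At entry into S phase, Ccne1, the cyclin E that partners Cdk2, was measured at 5.03, 12.3, 6.33 and 9.93 CPM in mice 1 to 4 of vehicle day 4 and at 18.7, 21.4, 12.9 and 8.51 CPM in vehicle day 7. With LPC it was at 9.07, 11.2, 8.52 and 11.2 CPM at day 4 and 27.1, 13.4, 26.9 and 15.7 CPM at day 7. The LPC groups did not overlap between days, while in vehicle mice 3 and 4 of day 7 lay near or within the day 4 range. The log2 fold change of day 7 over day 4 was 0.87 ± 0.33 with vehicle (SE, adjusted p 0.295) and 1.05 ± 0.33 with LPC (adjusted p 0.0545). E2f1, a transcription factor that switches on S-phase genes, was at 14.9, 23, 25.5 and 18.2 CPM in vehicle day 4 and 24.2, 26.8, 20.2 and 23.9 CPM in vehicle day 7. It was at 21.1, 28, 25.1 and 30.7 CPM in LPC day 4 and 29.5, 27.4, 29.1 and 19.3 CPM in LPC day 7, and the days overlapped under both treatments. Its fold changes were 0.22 ± 0.19 with vehicle and 0.01 ± 0.19 with LPC, the latter with a 95% interval of -0.40 to 0.41.

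Among the 10 genes of origin licensing and the helicase, the smallest day effects were 0.15 for Mcm7 with vehicle and 0.02 for Gins2 with LPC, where Mcm7 had 0.12. Cdc6, which helps load the MCM ring, was at 5.29, 8.05, 6.96 and 6.59 CPM in vehicle day 4 and 8.49, 9.02, 6.8 and 6.65 CPM in vehicle day 7. In LPC skin it was at 6.46, 6.89, 5.82 and 7.02 CPM at day 4 and 7.58, 7.43, 9.29 and 6.18 CPM at day 7. All 4 groups overlapped, and its day effects were 0.20 with vehicle and 0.22 with LPC (SE 0.18 each). Mcm2 was at 30.4, 62.2, 36.9 and 44 CPM in vehicle day 4 and 60.5, 80.1, 58.4 and 34 CPM in vehicle day 7. Under LPC it was at 45, 51.7, 53.6 and 54.1 CPM at day 4 and 91.1, 49.3, 86 and 51.7 CPM at day 7, where mice 1 and 3 were high and mice 2 and 4 at the day 4 level. Mcm5 followed the same mice, at 38.7, 88.4, 47.4 and 61.8 CPM in vehicle day 4 and 102, 116, 85.6 and 48.9 CPM in vehicle day 7, then 67.6, 76.8, 64.9 and 69.9 CPM in LPC day 4 and 131, 69.6, 114 and 75 CPM in LPC day 7. The day effects of Mcm2 were 0.42 ± 0.27 and 0.44 ± 0.27, and those of Mcm5 0.57 ± 0.28 and 0.48 ± 0.28, with vehicle and LPC respectively. Over the 10 genes the median day effect was 0.43 with vehicle and 0.25 with LPC, from 0.15 for Mcm7 to 0.62 for Mcm4 with vehicle and from -0.17 for Cdt1 to 0.48 for Mcm5 with LPC. The others of this class were Mcm3 and Mcm6 of the helicase ring, with 0.54 and 0.46 in vehicle and 0.44 and 0.19 with LPC, and Cdc45 and Gins2, which join the ring to form the active helicase, with 0.33 and 0.43 in vehicle and 0.29 and 0.02 with LPC.

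Of the 4 genes of DNA synthesis, Rrm2 differed most between days. It was at 22.6, 55.6, 32.4 and 59.4 CPM in vehicle day 4 and 109, 115, 101 and 34.1 CPM in vehicle day 7. In LPC skin the values were 52.5, 59.1, 35.8 and 51.4 CPM at day 4 and 141, 65.1, 186 and 89.5 CPM at day 7, so that the LPC groups did not overlap, while vehicle day 7 mouse 4 lay within the day 4 range. The log2 fold change was 1.08 ± 0.40 with vehicle (adjusted p 0.291) and 1.28 ± 0.40 with LPC (adjusted p 0.054). Its partner subunit Rrm1 had 0.71 with vehicle and 0.67 with LPC, whereas Tyms had 0.17 and 0.03, with a 95% interval of -0.30 to 0.35 for the latter. Pcna was at 74.2, 110, 95.3 and 108 CPM in vehicle day 4 and 123, 158, 114 and 79.8 CPM in vehicle day 7, then 131, 125, 121 and 140 CPM in LPC day 4 and 164, 100, 166 and 106 CPM in LPC day 7. Its day effects were 0.30 ± 0.21 with vehicle and 0.05 ± 0.21 with LPC, and the days overlapped under both treatments.

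The 3 members of S-phase checkpoint and chromatin were Chek1, the kinase that slows the cycle when replication stalls, Hells, a chromatin remodeller, and Uhrf1. Chek1 was at 4.13, 5.24, 7.34 and 9.88 CPM in vehicle day 4 and 13.1, 12.9, 7.63 and 12.4 CPM in LPC day 4, and at 11, 14.5, 10.3 and 7.53 CPM in vehicle day 7 and 9.27, 8.28, 16.1 and 6.95 CPM in LPC day 7. Mice 1 and 2 of vehicle day 4 were lowest of all 16. Uhrf1 was at 43.5, 90.1, 73.8 and 76.5 CPM in vehicle day 4 and 87.9, 143, 78.9 and 65.5 CPM in vehicle day 7, and at 78.8, 106, 80.1 and 99.9 CPM in LPC day 4 and 134, 63.5, 130 and 68.1 CPM in LPC day 7. Day effects of Uhrf1 were 0.40 ± 0.30 with vehicle and 0.12 ± 0.29 with LPC, with overlap in both.

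Mki67 and Top2a are the usual markers of cycling cells. Mki67, which coats mitotic chromosomes, was at 36.7, 54.8, 90.4 and 129 CPM in vehicle day 4 and 221, 215, 196 and 123 CPM in vehicle day 7. Mouse 4 of day 7 lay just below mouse 4 of day 4, the other 3 of day 7 lay above all of day 4, and the log2 fold change was 1.28 ± 0.39 (adjusted p 0.226). In LPC skin Mki67 was at 124, 131, 69.9 and 112 CPM at day 4 and 87.2, 133, 220 and 76.1 CPM at day 7, which overlapped, with 0.24 ± 0.38 (95% interval -0.59 to 1.07). Top2a was at 32.1, 89.3, 61.1 and 93.7 CPM in vehicle day 4 and 170, 192, 140 and 75.4 CPM in vehicle day 7, a log2 fold change of 1.06 ± 0.35. With LPC it was at 93.3, 129, 70.4 and 100 CPM at day 4 and 169, 113, 200 and 97.7 CPM at day 7, a log2 fold change of 0.56 ± 0.35. Foxm1, the transcription factor that acts on many mitotic promoters, had 0.89 with vehicle, where its 4 mice of day 7 were all above those of day 4, and 0.41 with LPC.

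**Figure D3:**
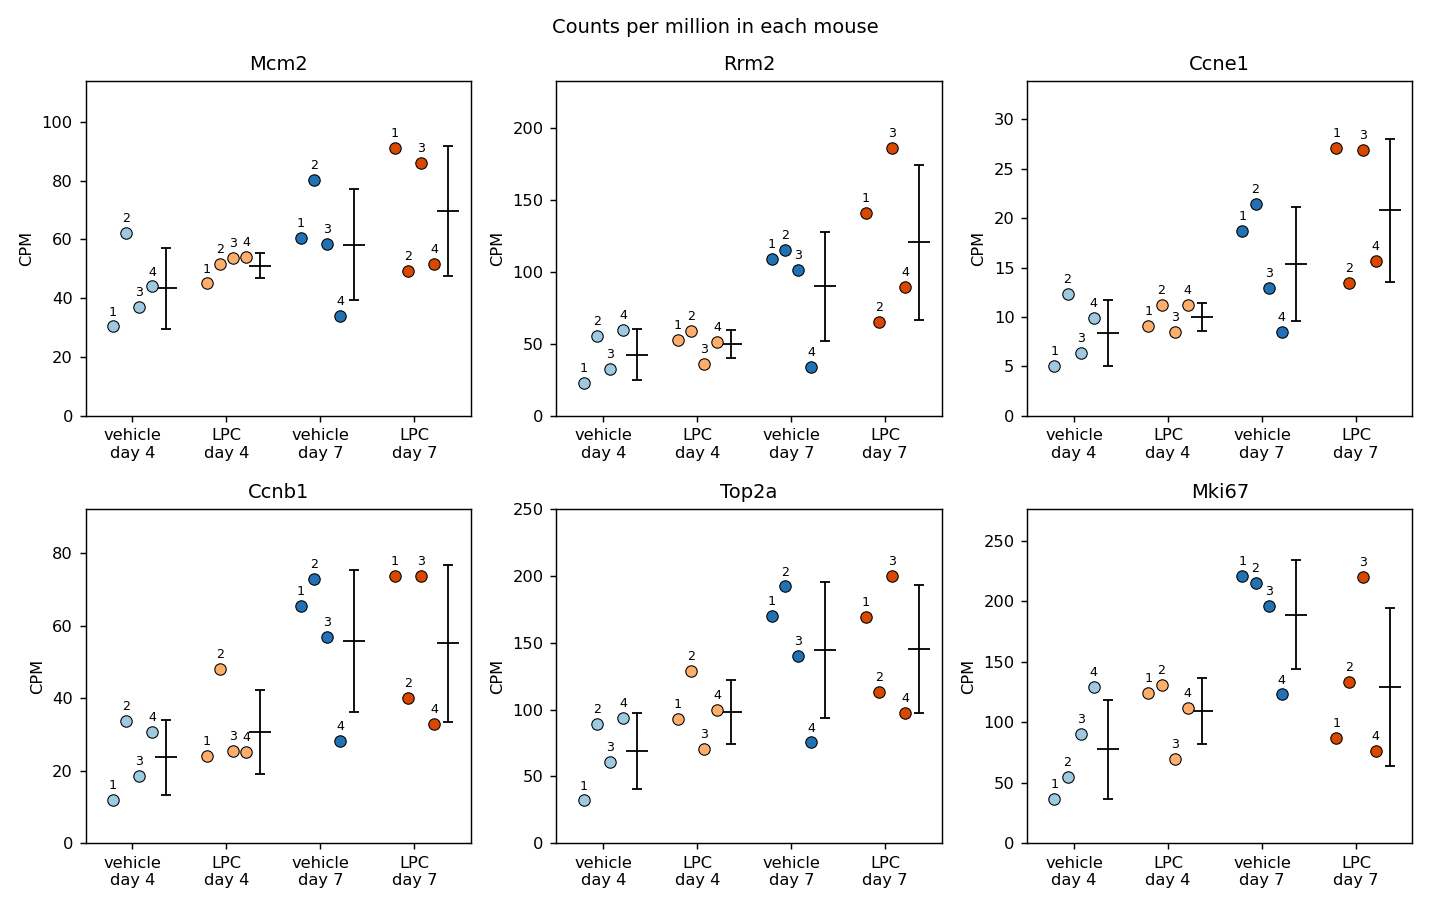
CPM of 3 S-phase members (top) and 3 mitotic members (bottom) with a numbered point for each mouse and a bar for the mean and SD of the 4 mice. Rrm2 and Ccne1 show no overlap between LPC day 4 and LPC day 7, and in Mki67 mouse 1 of LPC day 7 is low at 87.2 CPM while Ccnb1 in the same mouse is at 73.8 CPM, level with the group's highest.

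The cyclins and Cdk1 had a median day effect of 1.19 with vehicle and 0.78 with LPC over 4 genes. Ccnb1, the cyclin B that drives mitosis, was at 11.9, 33.8, 18.5 and 30.8 CPM in vehicle day 4 and 65.4, 72.9, 56.9 and 28.2 CPM in vehicle day 7, a log2 fold change of 1.23 ± 0.39. LPC skin had 24.2, 48, 25.6 and 25.2 CPM at day 4, where mouse 2 stood high, and 73.8, 40.1, 73.8 and 33 CPM at day 7, a log2 fold change of 0.84 ± 0.38. Cdk1 was at 15.7, 46.7, 23.8 and 38 CPM in vehicle day 4 and 72.8, 92.1, 55.5 and 31.8 CPM in vehicle day 7, then 42.5, 57.9, 32.2 and 37.2 CPM in LPC day 4 and 103, 47.6, 88.7 and 40.2 CPM in LPC day 7. Its log2 fold changes were 1.02 ± 0.39 and 0.72 ± 0.39, and its groups overlapped between days under both treatments. Ccna2, the cyclin A of S phase and G2, was at 16.5, 39.3, 27.1 and 41.6 CPM in vehicle day 4 and 86.4, 94.9, 63.8 and 41.4 CPM in vehicle day 7, with 1.20 ± 0.33 (adjusted p 0.208). Of the 45 members it had, after Ndc80, the smallest p of this comparison. Ccnb2, the second cyclin B, was at 7.78, 22.7, 12 and 18.7 CPM in vehicle day 4 and 40.4, 44.1, 31.7 and 23 CPM in vehicle day 7, a log2 fold change of 1.18 ± 0.36 with no overlap, although mouse 4 of day 7 was just above mouse 2 of day 4.

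Among the mitotic kinases, Plk1 was at 9.1, 31.7, 14.4 and 23.2 CPM in vehicle day 4 and 53.1, 58.2, 41.1 and 22.2 CPM in vehicle day 7, a log2 fold change of 1.15 ± 0.42. In LPC mice it was at 19.6, 41.1, 17.3 and 14.2 CPM at day 4 and 64.2, 35.3, 49 and 34.1 CPM at day 7, a log2 fold change of 0.98 ± 0.41, and mouse 2 of day 4 lay within the day 7 range. The Aurora kinases, Aurka of the spindle poles and Aurkb of the centromeres, had 0.98 and 0.89 with vehicle, and Birc5, the survivin partner of Aurkb, had 0.98. With LPC, Aurka had 0.91, Aurkb 0.52 and Birc5 0.49. Of the 6 kinetochore and checkpoint genes, Ndc80, which grips the microtubule end, was at 3.49, 5.63, 7.3 and 9.48 CPM in vehicle day 4 and 16.7, 20.8, 14.5 and 9.1 CPM in vehicle day 7, with 1.24 ± 0.33 (adjusted p 0.208). In LPC skin it was at 8.33, 14.4, 7.11 and 8.9 CPM at day 4 and 10.1, 12.3, 15.1 and 8.36 CPM at day 7, with 0.24 ± 0.32. Bub1 had 1.30 ± 0.40 with vehicle and 0.77 ± 0.39 with LPC, and its relative Bub1b, also of the spindle checkpoint, 1.08 ± 0.38 and 0.97 ± 0.37. Mad2l1, the checkpoint protein that holds Cdc20, had 0.90 ± 0.30 and 0.43 ± 0.29. Cenpe had 1.25 ± 0.41 and 0.82 ± 0.41, and Cenpf 0.96 ± 0.32 and 0.37 ± 0.32. The median of these 6 genes was 1.16 with vehicle and 0.60 with LPC.

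The spindle motors and midzone proteins, 6 genes that include the motors Kif11, Kif20a and Kif23, had a median day effect of 1.00 with vehicle and 0.51 with LPC. Kif11, the motor that pushes the spindle poles apart, had 1.18 ± 0.38 and 0.47 ± 0.38, and Tpx2 1.00 ± 0.30 and 0.77 ± 0.30. Kif20a and Kif23, motors of the midzone, had 0.99 and 0.88 with vehicle and 0.65 and 0.45 with LPC. Cdc20, which turns on the anaphase-promoting complex, was at 39.3, 94.1, 37.9 and 77.5 CPM in vehicle day 4 and 137, 165, 116 and 59.3 CPM in vehicle day 7, a log2 fold change of 0.94 ± 0.41. Under LPC it was at 73.6, 96.9, 53.2 and 53 CPM at day 4 and 256, 80.3, 169 and 92.6 CPM at day 7, which fitted as 1.11 ± 0.41 in log2 terms (adjusted p 0.0881). Ube2c, the ubiquitin-conjugating enzyme of the same complex, had 0.97 ± 0.32 with vehicle and 0.89 ± 0.31 with LPC (adjusted p 0.0771), and its LPC groups did not overlap between days. Cdc20 and Ube2c thus had day effects of like size under both treatments, while those of Mki67 and Ndc80 were 1.28 and 1.24 with vehicle and 0.24 each with LPC. These genes were picked after their values were seen, and other members lay beside or between them. Ccnb2 had 1.18 with vehicle and 0.98 with LPC, Ccna2 1.20 and 0.68, and Nusap1 1.01 and 0.18. The test of the difference itself passed for none of them.

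With LPC, 25 of 25 mitotic members were again higher at day 7, by a median of 0.65, and 18 of 20 S-phase members, by a median of 0.17, against 0.03 over all genes tested. No member passed edgeR's test, although 6.87% of genes tested were called higher and 4.13% lower. Of the mitotic members 8, and of the S-phase members 3, had an unadjusted p below 0.05, against 4854 of 15782 genes. The smallest adjusted p among the 45 were 0.054 for Rrm2 and 0.0545 for Ccne1. DESeq2 called 5 members (Ccne1, Rrm2, Ccnb2, Cdc20 and Ube2c, all higher) and 3073 genes in all. edgeR called Ccne1 and Rrm2 when only the 8 LPC libraries were used, with adjusted p of 0.0489 and 0.0494, and Ccne1 with the skeletal muscle score as a covariate, at 0.0407. Leaving out single LPC mice kept the mitotic median between 0.47 and 0.88 and put the S-phase median between 0.06, without mouse 3 of day 7, and 0.34, without mouse 4 (0.28 without mouse 2), and limma on log2(FPKM + 0.1) put the S-phase median at 0.00 and that of all genes at -0.12. In these groups 5 of 11 macrophage and monocyte markers rose (median of the list 1.92), 4 of 7 endothelial markers rose (median 1.14) and all 25 skeletal muscle genes had higher fitted levels, none called (median 2.74, scores 3.56 to 6.70 at day 4 and 3.91 to 9.24 at day 7). With the muscle score as a covariate the medians were 0.88 for the mitotic and 0.39 for the S-phase members. All 8 hyperproliferative keratinocyte markers were higher, 1 of them called (median 2.05), and 4 of 8 sebaceous gland markers fell (median -1.48). Basal keratinocyte markers had a median of -0.09, with 5 of 12 higher and 1 called lower. The part of these other lists was not tested.

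**Figure D4:**
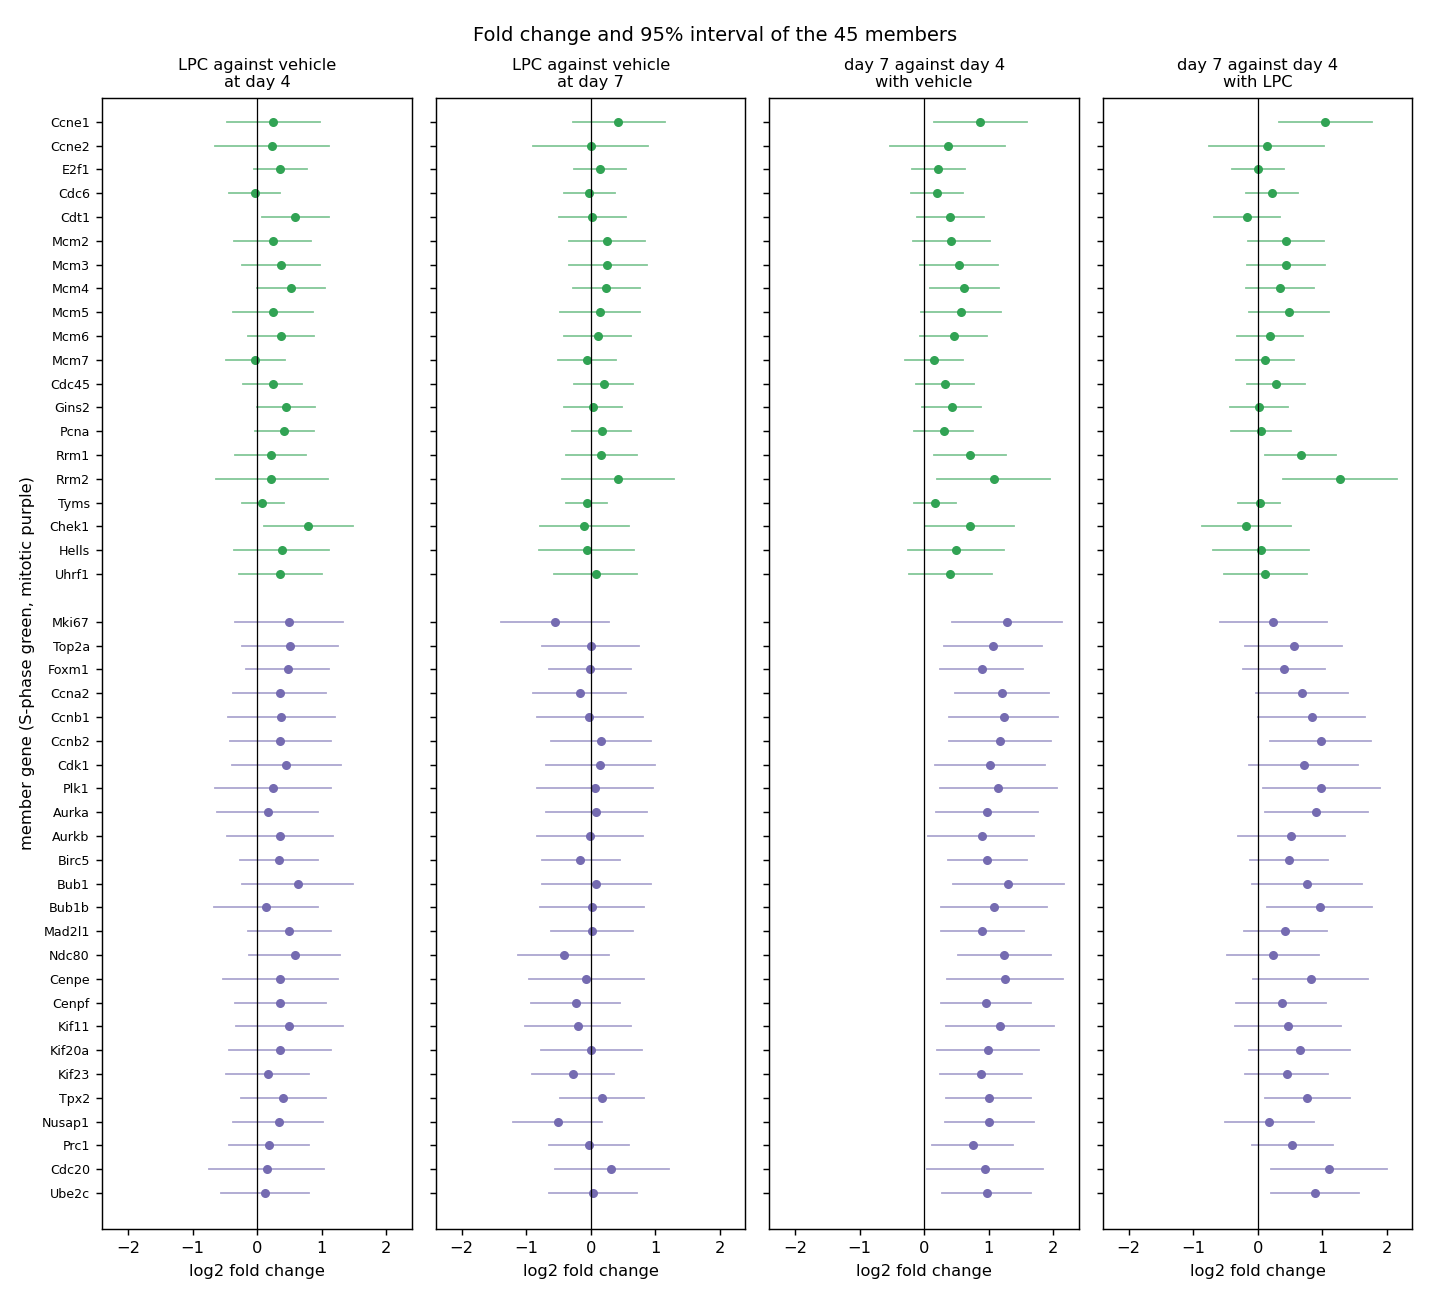
Log2 fold change (point) and 95% interval (line) of each of the 45 members in the 4 comparisons between groups, S-phase members in green and mitotic members in purple. In vehicle skin all 25 mitotic intervals for day 7 against day 4 lie above 0, while for LPC against vehicle all 25 hold 0 at both days. The members moved together in single mice, so these intervals are not separate results.

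At day 4, skin injected with LPC had higher fitted levels than vehicle skin for 25 of 25 mitotic members, by a median of 0.36, and for 18 of 20 S-phase members, by a median of 0.31, against 0 over all genes tested. None passed edgeR's test, where 0.095% of genes tested were called higher and 0.0444% lower. No mitotic member and 3 S-phase members had an unadjusted p below 0.05, against 3025 of 15782 genes, and DESeq2 called none of the 45 and 1104 genes in all. The 95% intervals of the members reached from -0.74 to 1.49, so that a 2-fold difference lay inside the widest of them. The smallest p belonged to Cdt1, the licensing factor that brings the MCM ring to origins, with 0.59 ± 0.24 (adjusted p 0.189). Cdt1 was at 25.4, 39.6, 30.4 and 35.9 CPM in vehicle and 53.6, 49.4, 42.8 and 52.3 CPM with LPC, with no overlap. Chek1 had the largest difference, 0.79 ± 0.32 (adjusted p 0.191), with overlap between the groups at the values given above. Mcm4, Mcm6 and Pcna also had no overlap, with log2 fold changes of 0.52, 0.37 and 0.42. The share of all genes tested that had no overlap was not counted, in this or any other comparison, so absence of overlap describes single genes only. Cdc6 had the lowest, -0.04 ± 0.18 (95% interval -0.44 to 0.36). Single mice moved the medians both ways. Without mouse 1 of vehicle day 4 they were 0.15 for the mitotic and 0.16 for the S-phase members, and without mouse 2 of LPC day 4 they were 0.09 and 0.26. Without mouse 2 of vehicle day 4 they were 0.52 and 0.46, and without mouse 4 of vehicle day 4 they were 0.52 and 0.37. The vehicle mice of day 4 serve in this comparison and in that between days in vehicle, so the low mouse 1 enters both.

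The same mice of day 4 differed more in muscle transcripts than in the cell cycle. The skeletal muscle scores were 10.23, 9.70, 6.78 and 9.99 in vehicle and 6.70, 3.56, 4.05 and 5.42 with LPC, and all 25 muscle genes had lower fitted levels with LPC, by a median log2 fold change of -4.04. With this score as a covariate, the median LPC effect at day 4 turned to -0.25 for the mitotic members, 6 of 25 positive, and to -0.20 for the S-phase members, 5 of 20 positive, while the median over all genes stayed at 0.01. At this day LPC and a low muscle score cannot be told apart, since the groups did not overlap in the score. Other lists also lay lower with LPC, among them those of adipocytes (10 of 11 genes lower, median -2.39) and of hair matrix (13 of 13, median -1.31), and basal keratinocyte markers lay higher (10 of 12, median 0.61, scores 9 to 9.49 against 8.54 to 8.80). Their part in the member values was not tested, except that with the hair matrix score as a covariate the medians were 0.34 for the mitotic and 0.29 for the S-phase members.

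**Figure D5:**
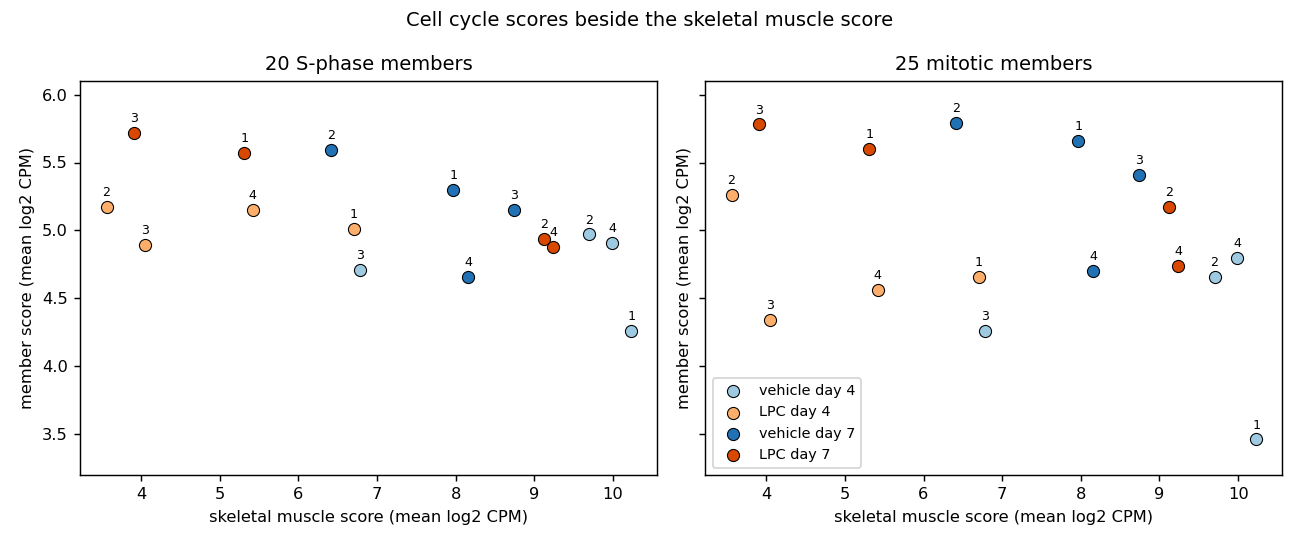
Mean log2 CPM of the 20 S-phase and the 25 mitotic members against the skeletal muscle score of the same library, with a numbered point for each mouse. All 4 LPC day 4 mice have muscle scores of 6.70 or less, and vehicle day 4 mouse 1 combines the highest muscle score, 10.23, with the lowest member scores, 4.26 and 3.46.

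At day 7 the fitted LPC effects on these genes had both signs. The median LPC effect was -0.01 over the mitotic members, 12 of 25 positive, and 0.13 over the S-phase members, 15 of 20 positive, against 0.02 over all genes tested. Leaving out single mice of these 8 put the mitotic median between -0.18 and 0.16, and the S-phase median between -0.04, without mouse 4 of vehicle, and 0.27, without mouse 2 of vehicle. With the skeletal muscle score as a covariate the mitotic median was -0.17, with 2 of 25 positive, and the S-phase median 0.02. With limma on log2(FPKM + 0.1) the mitotic median was -0.13, with 3 of 25 positive, and the S-phase median -0.01, but the median over all genes was then -0.12. edgeR called none of the 45, where 2.38% of genes tested were called higher and 1.44% lower, and none had an unadjusted p below 0.05, against 3114 of 15782 genes. DESeq2 called none of the 45 and 1448 genes in all. Every 95% interval held 0, and together they reached from -1.39 to 1.29, so that a 2-fold difference either way lay inside the widest of them. The lowest value was that of Mki67, -0.55 ± 0.38 (adjusted p 0.472). Nusap1, which bundles spindle microtubules, had the smallest p, with -0.51 ± 0.32 (adjusted p 0.409), at 25.6, 27.3, 22.5 and 15.1 CPM in vehicle and 13.7, 18, 21.5 and 10.5 CPM with LPC, which overlapped. The highest was that of Ccne1, 0.43 ± 0.33 (adjusted p 0.518). Other lists did move at this day: 6 of 10 suprabasal keratinocyte markers fell (median of the list -1.49), 3 of 9 neutrophil markers rose (median 1.93), and all 8 hyperproliferative keratinocyte markers, 2 of which are also neutrophil markers, had higher fitted levels (median 0.92), none of them called. Basal keratinocyte markers had a median of 0.34, with 8 of 12 higher and none called. The part of these cells in the member values was not tested.

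Mki67 and some other members went apart from the rest in mouse 1 of LPC day 7. This mouse had 87.2 CPM of Mki67 against 220 CPM in mouse 3 of the group, while Top2a was at 169 and 200 CPM and Cdc20 at 256 and 169 CPM. The log2 difference between these mice was -1.34 for Mki67, -1.28 for Hells and -1.21 for the kinetochore motor Cenpe, but 0.60 for Cdc20 and 0.39 for Plk1. The transcripts of Mki67 and Cenpe are long, 9309 and 7813 bases, and those of Cdc20 and Ube2c short, 1793 and 931 bases. Other members did not follow their length: Hells has 3592 bases, Ccne2, at -1.19, has 2877 bases, and Cenpf, the longest member at 11130 bases, differed by -0.53. Over 2139 genes above 5000 bases and 2122 below 1500, members left out, the long-minus-short value was -0.26 in mouse 1, 0.13 in mouse 3 and 0.00 in mice 2 and 4. It was -0.24, -0.12, 0.18 and 0.14 in vehicle day 4 and between -0.07 and 0.09 in the other 2 groups. This pattern was noticed after the values had been seen, and the part of transcript length in the Mki67 values was not tested.

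The LPC effect at day 7 minus that at day 4 had a median of -0.43 over the mitotic members, 1 of 25 positive, and of -0.18 over the S-phase members, 4 of 20 positive, against 0 over all genes. edgeR called no member and no gene, 0% higher and 0% lower. An unadjusted p below 0.05 was found for 1 member, Ndc80, at -0.99 ± 0.46 (adjusted p 0.291), and for 2674 of 15782 genes. DESeq2 called none of the 45 and 585 genes in all. Chek1 followed at -0.89 ± 0.45 (adjusted p 0.326), and Mki67 had the lowest value, -1.04 ± 0.54 (adjusted p 0.339, 95% interval -2.22 to 0.14). Without single mice the mitotic median of this difference ran from -0.58 to -0.18, the latter without mouse 1 of vehicle day 4, and the S-phase median from -0.29 to -0.01. For Cdc20 the value was 0.17 ± 0.58 and for Ube2c -0.08 ± 0.44. With the skeletal muscle score as a covariate the medians were 0.00 and 0.22, with 12 of 25 mitotic and 16 of 20 S-phase members positive.

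Genes of the same processes outside the 45 were read from lists fixed for this work with earlier results known. Of 54 other replication genes and 70 other mitotic genes, edgeR called 0 in each of the 5 comparisons. Their median day effects were 0.37 and 0.87 with vehicle and 0.07 and 0.44 with LPC, and their median LPC effects 0.36 and 0.41 at day 4 and 0.02 and -0.05 at day 7. In vehicle, 62 of the 70 other mitotic genes and 8 of the 54 replication genes had an unadjusted p below 0.05, against 13.0% of all genes tested. With LPC 10 and 1 had such a p, against 30.8% of all genes, so that both lists lay below the background there. For LPC against vehicle, 4 mitotic and 8 replication genes had such a p at day 4, against 19.2% of all genes, and 1 and 0 at day 7, against 19.7%. For the difference between days it was 2 and 2, against 16.9%. All these genes were measured in the same mice as the members, so the counts are not counts of separate results.

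Among all the cell cycle genes read here, edgeR called 3, all of them regulators outside the 45. For LPC at day 7 these were 2 of 44 regulators, both higher, against 2.38% of all genes called higher, and between days with LPC 1 higher and 1 lower of 44, against 6.87% and 4.13%, so that neither count is far from the background. Of 18 G1 cyclins, kinases and E2F or MYC factors, Ccnd3, a cyclin D, rose with LPC at day 7, from 91.6, 99.9, 76.1 and 86.7 CPM in vehicle to 150, 137, 98.1 and 126 CPM, a difference of 0.53 ± 0.13 in log2 terms (adjusted p 0.0399). Here mouse 3 of LPC lay just below mouse 2 of vehicle. It also rose from day 4 to day 7 with LPC, from 76.8, 92.5, 90.3 and 91.4 CPM at day 4, by 0.54 ± 0.13 (adjusted p 0.022). Both calls were lost with limma on FPKM and on leaving out single mice, with adjusted p up to 0.131. Myc, a growth-promoting transcription factor, fell from 217, 154, 252 and 252 CPM in LPC day 4 to 149, 82.5, 123 and 118 CPM in LPC day 7, with -0.89 ± 0.20 (adjusted p 0.0164) and no overlap, and lost the call without mouse 3 of day 4 (adjusted p 0.0558). In vehicle Myc was at 140, 130, 143 and 107 CPM at day 4 and 114, 164, 104 and 139 CPM at day 7. LPC day 7 thus overlapped with both vehicle groups, and LPC day 4 lay above vehicle day 4, a difference that was not called. Of 26 cell cycle inhibitors and arrest genes tested, Btg2, an antiproliferative gene, was higher with LPC than with vehicle at day 7. It was at 57.2, 50.4, 52.1 and 72.6 CPM in vehicle and 177, 121, 98.7 and 121 CPM with LPC. The groups did not overlap, and the difference was 1.15 ± 0.20 (adjusted p 0.0123). At day 4 Btg2 was at 145, 99.9, 141 and 107 CPM in vehicle and 114, 88.9, 109 and 80.1 CPM with LPC. LPC day 7 thus overlapped with both day 4 groups, while vehicle day 7 lay below them. The call for LPC against vehicle at day 7 missed the threshold when only these 8 libraries were fitted (adjusted p 0.0503). Cdkn1a, the Cdk inhibitor p21, had 1.05 ± 0.29 in that comparison (adjusted p 0.056).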

How the data were processed

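RNA from the skin lesions of 16 mice was sequenced on a BGISEQ-500, per the labels' protocols. The authors' deposited tables give, per gene, an expected count and an FPKM value made with RSEM, per the labels' protocols, and Bowtie2 and GRCm38 are named in the submitters' processing notes (version not given in the sources used here). These deposited FPKM values are scaled to transcript length and library size. Groups came from the sample titles, which give days 4 and 7 where file names give 3 and 6. Expected counts were rounded, and 15782 genes passed edgeR's expression filter, which removed 3657.

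Group means of all 16 libraries were fitted together with edgeR 4.0.16 (TMM factors, quasi-likelihood test, R 4.3.3), with Benjamini-Hochberg adjustment over all genes tested and a call at adjusted p below 0.05. The spread was pooled over the groups, with 12 residual degrees of freedom and a biological coefficient of variation of 35%. Standard errors were worked back from the log2 fold change and the F statistic of the test. The 95% intervals use a t distribution with the 12 residual degrees of freedom only, so they can differ slightly from p. Ndc80 in the difference between days had an unadjusted edgeR p of 0.0475 and an interval of -2 to 0.01. CPM are TMM-scaled, and scores are mean log2 CPM with a prior count of 2. A count of 3 corresponded to 0.149 to 0.16 CPM. The design text gives 4 mice per group, and p-values measure the spread between them.

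The members and all gene lists were chosen with earlier results of these data known. Values in every mouse were given for a panel of 14 members, for the 2 members with the smallest p of a comparison and for the largest differences of LPC, and called genes of the pathway lists were named. Other genes and members were named by their role after their values were seen. Alternatives were DESeq2 1.42.0, limma 3.58.1 on log2(FPKM + 0.1) and log2(FPKM + 1), other size factors and filters, covariates, the replicate number as a block and leaving out each mouse. The main edgeR fit was tested on simulated counts for the comparisons between groups, but the alternatives and the difference between days were not. The simulation drew each gene independently, while the members moved together in single mice, so nothing is concluded from it about the members as a set. Promoter windows were RefSeq's on GRCm38.p6.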

Additional observations from a re-analysis of the deposited data

Results flagged for a closer look

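Of 100 sets of 4 values tested for a mouse far from the other 3 of its group, 4 held one, and chance flags about 1 in 20 groups. Ccnb1 was at 48.0 CPM in mouse 2 of LPC day 4 against 24.2 to 25.6 CPM in the other 3, and Nusap1 was at 22.9 CPM in the same mouse against 9.87 to 12 CPM. This mouse was the highest of its group for all 25 mitotic members. Chek1 was at 7.63 CPM in mouse 3 of LPC day 4 against 12.4 to 13.1 CPM in the others. Ccnd3 was at 76.8 CPM in mouse 1 of LPC day 4 against 90.3 to 92.5 CPM in the others.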

How the results depend on the processing

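The fit as reported called no member in any comparison, while counts over all genes moved with the settings. For LPC against vehicle at day 4, 22 genes were called, but 8 without the low-count filter, 1104 with DESeq2, 38 and 40 with limma on log2(FPKM + 0.1) and log2(FPKM + 1), 0 with the muscle or the hair matrix score as a covariate, 1333 with only the 8 libraries compared and 0 to 683 without single mice. At day 7, 604 were called, but 1448 with DESeq2, 1204 with the muscle score, 45 with only 8 libraries and 111 to 697 without single mice. Between days, vehicle had 0 called, 223 with DESeq2 and 0 to 205 without single mice, and LPC 1736, 3073 with DESeq2, 838 with the muscle score, 725 with the hair matrix score, 1100 with only 8 libraries and 518 to 2207 without single mice. The difference between days had 0, but 1 with median-of-ratios size factors, 585 with DESeq2, 1 with limma on log2(FPKM + 1), 38 with the hair matrix score and 0 to 214 without single mice. Members called between days were 2 in vehicle with DESeq2 and 0 to 1 without single mice, and with LPC 5 with DESeq2, 1 with the muscle score and 2 with only 8 libraries. The cause was not tested.

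The correlations of the deviations of same-numbered mice were 0.1144, 0.0994, 0.2936 and 0.5393 for LPC against vehicle at day 4, but from -0.6 to 0.15 in the other 3 comparisons. At day 4, 5 of 8 mice correlated best with their own number, and 0 of 8 in each of the others. The labels name nothing that same-numbered mice share, and 1 of the 4 pairs at day 4 lay just under the limit of 0.1 set for every pair, so the numbers were not taken as pairs. With the replicate number as a block 2, 351 and 901 genes were called for LPC at day 4, LPC at day 7 and the days with LPC, and 0 members, with medians at day 4 of 0.32 for both classes. Leaving out the 3 libraries with the lowest long-minus-short value (mice 1 and 2 of vehicle day 4, mouse 1 of LPC day 7), chosen after seeing the data, gave 0 genes at day 4 and 26 at day 7.

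Small day effects with LPC turned in sign: E2f1 to -0.12 and -0.11 with limma on log2(FPKM + 0.1) and log2(FPKM + 1), to -0.05 without the 3 libraries and from -0.09 to 0.13 without single mice, Pcna to -0.12, -0.11, -0.06 and from -0.07 to 0.16, and Uhrf1 to -0.08, -0.08, -0.06 and from -0.06 to 0.27. That of Mki67 went from -0.15 to 0.42 without single mice, and the LPC effect on Cdc6 at day 4 from -0.14 to 0.06. For the days with LPC, limma put the median over all genes itself at -0.12 and -0.08. All members had the counts to be tested, but no setting varied the depth, so what it adds to their standard errors was not tested.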
